A study of Mus musculus with 14 samples.

Results

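Regions of open chromatin that had more signal in wild-type long-term haematopoietic stem cells (LT-HSC) than in wild-type myeloid-biased multipotent progenitors (MPP3) were followed into cells that carry Dnmt3a and Npm1 mutations. The regions lie on the 19 mouse autosomes (build mm10) and had a mean deposited value of at least 100 over the 14 libraries. Both wild-type LT-HSC libraries had to exceed both wild-type MPP3 libraries, and the difference of the means had to reach 1 on the log2 scale. That left 369 regions, or 1.498% of the 24627 regions that passed the filter on low values, of 705361 in all. The members were thus chosen on wild-type values, so every wild-type value below is a description and carries no test. The 10 mutant libraries played no part in the comparison that chose them, apart from the mean over all libraries.

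Accessibility was read by ATAC-seq: a transposase cuts and tags DNA where nucleosomes leave it free, and the tagged fragments are sequenced. Whole bone marrow, 1000000 cells, from young C57BL/6J donors was given to lethally irradiated CD45.1 recipients. At intervals of 4 weeks every recipient, WT included, was given poly(I:C), then tamoxifen, and LT-HSC and MPP3 were sorted from its marrow by flow cytometry. Donors were Dnmt3a-flR878H/+ (here Dnmt3a), Npm1-frt/+ (Npm1), Dnmt3a-flR878H/+;Npm1-frt/+ (Dnmt3a;Npm1) or WT carrying Mx-Cre, a recombinase gene whose interferon-responsive promoter poly(I:C) switches on. Sample titles give the Npm1 allele as Npm1c, and the labels name no recombinase for the mutant donors. LT-HSC were sequenced from 1 Dnmt3a, 2 Npm1, 2 Dnmt3a;Npm1 and 2 WT samples, and MPP3 from 2 Dnmt3a, 2 Npm1, 1 Dnmt3a;Npm1 and 2 WT samples. Neither the sorting markers nor the number of animals behind a library is given in the sources used here, so p-values measure the spread between libraries, which may be technical.

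LT-HSC can rebuild all blood lineages for life and are mostly quiescent, whereas MPP3 are a downstream, dividing population biased towards granulocytes and macrophages. Regulatory DNA that is open in a stem cell and closes on commitment is read by factors of the ETS, GATA, RUNX, TAL1, HOX and MEIS families. DNMT3A, a methyltransferase that adds methyl groups to CpG dinucleotides, and NPM1, a nucleolar chaperone, are often mutated together in acute myeloid leukaemia, DNMT3A also in clonal haematopoiesis, and NPM1-mutant leukaemias keep HOX and MEIS1 genes active. In libraries of sorted cells, a lower value can come from fewer cells with a region open or from less opening per cell, and these cannot be told apart.

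Libraries differed in how far reads were concentrated in open regions. The 24627 kept regions held 15.1% and 18.8% of the deposited signal in the Npm1 LT-HSC libraries and 21.6% and 26.0% in the Dnmt3a MPP3 libraries, against 29.98% to 43.8% in the other 6 mutant libraries. This share therefore runs in opposite directions in the Npm1 and Dnmt3a cell type comparisons, and it is close to equal between cell types in Dnmt3a;Npm1, at 30.6% and 29.98% in LT-HSC and 35.0% in MPP3. Some libraries also stood apart on single chromosomes. The median over kept regions of chromosome 11 lay 0.30 log2 units below the mean of all libraries in Dnmt3a;Npm1 LT-HSC replicate B and 0.27 above it in Dnmt3a MPP3 replicate B. Of the kept regions at marker genes, 22 of the 30 at LT-HSC marker genes and 6 of the 20 at MPP3 marker genes had a positive LT-HSC minus MPP3 difference in the mutants, with medians of 0.26 and -0.27 log2 units. Of the LT-HSC marker regions 3 are members, and B cell markers (3 of 4 positive, median 0.25), mast cell markers (4 of 4, 0.0632) and T and NK cell markers (2 of 3, 0.065) were mostly positive too. Mature granulocyte markers were positive in 0 of 2 regions and niche markers in 3 of 7. Markers of megakaryocytes and red cells were positive in 5 of 6 regions, with library medians of 121 to 285 in the mutant LT-HSC libraries and 129 to 155 in the mutant MPP3 libraries, and 3 of these regions are members; the part of other cell types in the results was not tested.

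Some members lie on promoters, and 6 of their windows are shown as sequence so that the letters read by blood transcription factors can be seen. Of 363 members compared with the RefSeq promoter table, 57 overlapped a promoter window, here 250 bases before to 50 bases after a RefSeq transcription start (assembly GRCm38.p6), read 5′ to 3′ on the gene's strand. Capitals mark, on either strand, letters that such factors bind: for the family of GATA factors AGATAA, for the RUNX family TGTGGT, for the ETS family AGGAAG, for the E-box that TAL1 reads CAGCTG, and for the MEIS family TGACAG. Obsl1 and Inha share the member with the smallest p of those at a promoter. The Prkg1 window, at a start inside the gene, lies in a member that also separated the mutant libraries of both cell types. Aqp1, Gp1ba and Gp9 are red-cell and platelet genes, shown for their role although the cell types overlapped there.
Obsl1, chr1:75506403-75506702, minus strand: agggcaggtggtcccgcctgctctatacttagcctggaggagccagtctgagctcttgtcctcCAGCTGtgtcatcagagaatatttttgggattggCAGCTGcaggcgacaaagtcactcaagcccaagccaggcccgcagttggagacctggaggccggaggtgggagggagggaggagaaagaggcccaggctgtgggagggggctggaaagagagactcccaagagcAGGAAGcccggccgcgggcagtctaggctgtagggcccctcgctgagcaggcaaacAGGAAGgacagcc
Inha, chr1:75507359-75507658, plus strand: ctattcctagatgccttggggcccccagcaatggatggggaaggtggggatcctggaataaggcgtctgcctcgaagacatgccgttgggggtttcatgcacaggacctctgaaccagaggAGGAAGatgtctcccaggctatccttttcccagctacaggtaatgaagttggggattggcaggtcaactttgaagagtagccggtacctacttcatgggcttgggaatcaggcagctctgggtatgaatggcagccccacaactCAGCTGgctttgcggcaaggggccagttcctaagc
Prkg1, chr19:31664321-31664620, minus strand: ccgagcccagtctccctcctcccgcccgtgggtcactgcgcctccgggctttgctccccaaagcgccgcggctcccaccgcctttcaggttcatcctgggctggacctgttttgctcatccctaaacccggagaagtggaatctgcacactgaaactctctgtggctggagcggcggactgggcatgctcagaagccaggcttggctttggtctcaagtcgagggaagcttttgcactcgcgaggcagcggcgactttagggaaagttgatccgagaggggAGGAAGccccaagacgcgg
Aqp1, chr6:55336049-55336348, plus strand: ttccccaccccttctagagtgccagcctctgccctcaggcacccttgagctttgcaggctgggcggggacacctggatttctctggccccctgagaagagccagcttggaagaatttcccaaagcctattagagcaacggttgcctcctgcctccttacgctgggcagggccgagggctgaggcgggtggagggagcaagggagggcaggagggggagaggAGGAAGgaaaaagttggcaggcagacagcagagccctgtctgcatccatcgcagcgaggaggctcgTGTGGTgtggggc
Gp1ba, chr11:70638872-70639171, plus strand: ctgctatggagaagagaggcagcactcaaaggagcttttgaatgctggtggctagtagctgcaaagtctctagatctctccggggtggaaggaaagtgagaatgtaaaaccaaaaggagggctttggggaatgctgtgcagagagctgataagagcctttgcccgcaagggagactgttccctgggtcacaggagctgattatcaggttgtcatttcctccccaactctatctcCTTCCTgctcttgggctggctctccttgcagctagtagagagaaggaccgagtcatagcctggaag
Gp9, chr6:87777820-87778119, plus strand: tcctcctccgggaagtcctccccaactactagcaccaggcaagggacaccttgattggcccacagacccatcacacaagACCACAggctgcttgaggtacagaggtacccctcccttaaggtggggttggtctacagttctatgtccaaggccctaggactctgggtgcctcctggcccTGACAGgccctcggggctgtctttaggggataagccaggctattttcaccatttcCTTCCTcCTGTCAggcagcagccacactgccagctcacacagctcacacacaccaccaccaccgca

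All 6 windows held the ETS letters at least once. The Obsl1 window held them 2 times, with the TAL1 E-box also present 2 times, and the Gp9 window had the MEIS letters 2 times and RUNX once. No window of these 6 held AGATAA, the only GATA letters counted, and other forms of a GATA site were not searched. Over all 61 promoter windows that overlap a member, 55.7% had the ETS letters, against 32.0% of the 13252 windows that overlap a kept region and 35.4% of all 32851 windows in the table. GATA letters were in 11.5% of member windows, 5.25% of kept windows and 11.2% of all windows, and the TAL1 E-box was in 21.3%, 14.6% and 16.3%. RUNX letters were in 14.8%, 11.8% and 16.8% and MEIS letters in 11.5%, 15.9% and 19.2% of the same sets. GGGCGG, the letters bound by SP and KLF factors, went the other way, at 45.9% of member windows, 67.3% of kept windows and 35.7% of all windows. Letters of other factors were counted too, in the same order of sets. AP-1 letters were in 9.84%, 4.32% and 7.81%, and those of PU.1 with IRF in 4.92%, 1.94% and 2.72%. HOX with PBX letters were in 4.92%, 3.16% and 8.85%, and STAT letters in 6.56%, 6.17% and 8.3%. CTCF letters were in 11.5%, 17.7% and 10.6%, and C/EBP letters in 4.92%, 7.49% and 10.8%. The windows also differed in base composition: the median GC content was 54.7% in member windows, 62.3% in kept windows and 52.7% in all windows, and the median number of CpG dinucleotides was 8, 22 and 7. These shares count letters in windows of 300 bases, and the part of base composition in them was not tested.

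Most members lay away from promoters. A gene end, meaning either bound of a RefSeq gene, was within 1000 bp of 104 members (28.2%), against 55.4% of kept regions and 35.9% of the kept regions with a mean value under 200. Promoter windows were overlapped by 15.7% of members, 41.2% of kept regions and 19.3% of the low kept regions. The low kept regions are the closer comparison, since 337 of the 369 members had a mean value under 200. Inside a gene but farther than 1000 bp from its ends lay 187 members (50.7%), and 78 (21.1%) were outside genes at the same distance, against 31.9% and 12.7% of kept regions and 44.9% and 19.2% of the low kept regions. The members were assigned to 345 genes, 22 of which had 2 members and none 3. Gene names below say where a region lies, and no region was shown to act on its gene.

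Chromosome 11 carried 53 members, 14.4% of the set, against 9.20% of kept regions. WT LT-HSC replicate B, which helped to choose the members, lay 0.16 log2 units above the mean of all libraries on that chromosome. When each library was centred within each chromosome before the rule was applied, 320 regions met it, of which 296 were among the 369. In the mutant libraries 47 of the 53 members on chromosome 11 and 293 of the 316 elsewhere had a positive cell type difference, with medians of 0.52 and 0.57.

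The question for the mutant libraries was whether a region that is more open in wild-type LT-HSC keeps that difference when the cells carry the mutations. Values were scaled so that the median over kept regions was 200 in every library. The median member then stood at 157 in the Dnmt3a LT-HSC library, 153.5 and 163 in the Npm1 LT-HSC libraries and 153.5 and 140.1 in the Dnmt3a;Npm1 LT-HSC libraries. In mutant MPP3 it stood at 124 and 109 in the Dnmt3a libraries, 89.4 and 84.2 in the Npm1 libraries and 113 in the Dnmt3a;Npm1 library. Every mutant LT-HSC library thus lay above every mutant MPP3 library. WT libraries, on which the members were chosen, had medians of 171 and 211 in LT-HSC, against 82.3 and 74.4 in MPP3. The kept regions of mean value under 200 that are not members had medians of 124 to 155 in the mutant LT-HSC libraries and 127 to 137 in the mutant MPP3 libraries, so for them the cell types overlapped.

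**Figure D1:**
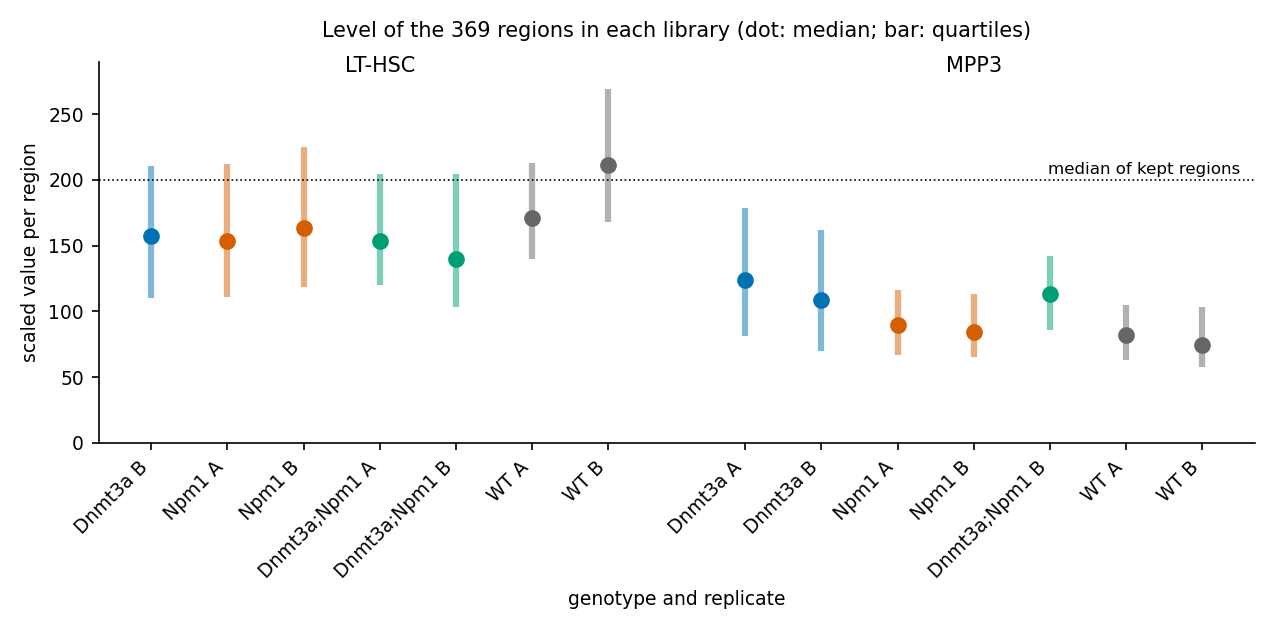
Scaled value of the 369 regions in each of the 14 libraries, with LT-HSC on the left and MPP3 on the right; the dot is the median over regions, the bar runs from the lower to the upper quartile, colours give the genotype, and the dotted line marks 200, the median of all kept regions. The 5 mutant LT-HSC medians sit between 140.1 and 163, above the 5 mutant MPP3 medians of 84.2 to 124.

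Averaged over the 3 mutant genotypes, 340 of the 369 members (92.1%) had a positive LT-HSC minus MPP3 difference. This held for 41.7% of kept regions and 52.0% of the low kept regions. The member median was 0.56 on the log2 scale, that of kept regions -0.08 and that of the low kept regions 0.02. No member passed an adjusted p of 0.05 in limma in either direction, and nor did any other of the 24627 kept regions (percent called 0). At an unadjusted p under 0.05, 107 members (29.0%) were higher in LT-HSC, against 4.28% of kept regions and 5.92% of the low kept regions, and 0 were lower, against 6.57% and 5.12%. A simulated log2 change of 1 was recovered in 0.2% of altered regions by this fit and a change of 2 in 81.5%, and 55 members had a difference of at least 1. The members' median exceeded the kept median by 0.63, and by 0.57 to 0.75 when any one mutant library was left out. When single Dnmt3a libraries were left out some kept regions were called, members among them. The member median was then 0.55 or 0.50 without a Dnmt3a MPP3 library and 0.56 without the Dnmt3a LT-HSC library. The kept medians were -0.09, -0.07 and -0.20. Scaling by library totals moved the kept median to -0.26 and the member median to 0.38, with 296 members positive.

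Sizes ranged from -0.52 to 1.87, with quartiles of 0.26 and 0.85. Below 0 were 29 members. Members with a larger wild-type difference had a somewhat larger mutant one: the 45 with at least 1.5 in WT had a mutant median of 0.78, and the other 324 had 0.52. Across the 369 members the Pearson correlation of the 2 differences was 0.29, over regions that share libraries and are not independent. The rule's edge fell among small values, with 1.0009 for the second Aqp1 region just inside and 0.9984 for the N4bp3 region just outside, and the median wild-type difference was 1.17.

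**Figure D2:**
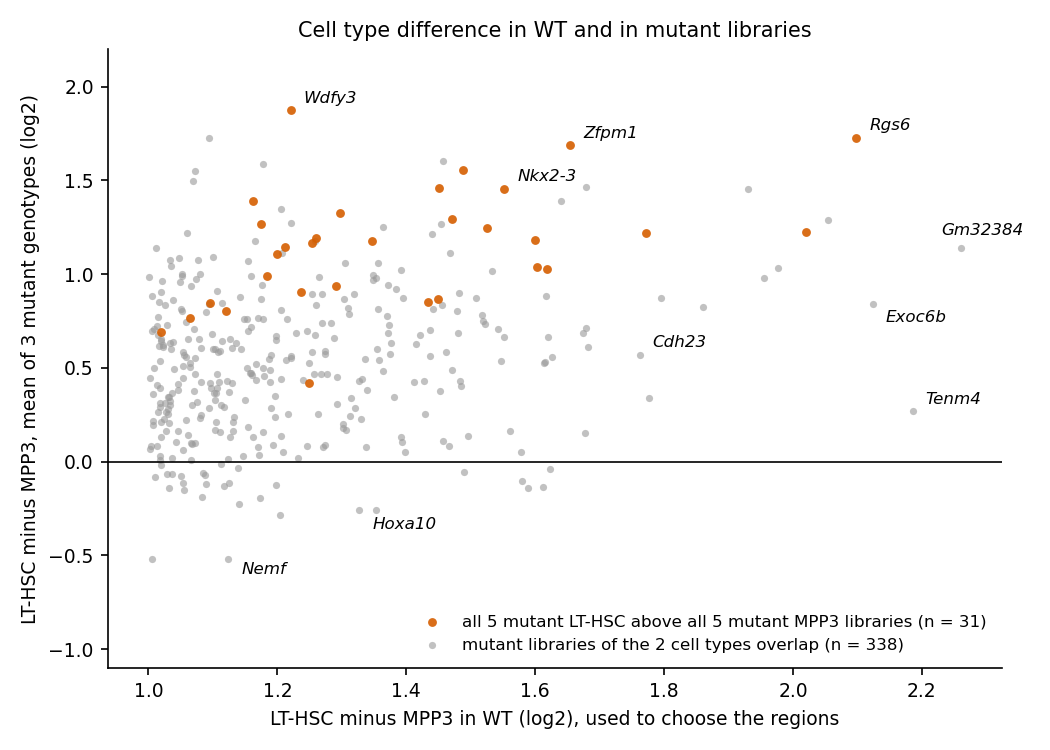
Each of the 369 regions by its LT-HSC minus MPP3 difference in WT (x axis, log2, used to choose the regions) and in the mean of the 3 mutant genotypes (y axis, log2). Orange points are the 31 regions whose 5 mutant LT-HSC libraries all exceed their 5 mutant MPP3 libraries; 29 points lie below 0.

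In 31 members (8.40%) all 5 mutant LT-HSC libraries exceeded all 5 mutant MPP3 libraries. This held for 1.06% of kept regions and 1.44% of the low kept regions. The opposite order was found in 0 members, 1.44% of kept regions and 1.35% of the low kept regions. A positive difference in each of the 3 genotypes was seen in 176 members (47.7%), against 10.6% of kept regions and 14.9% of the low kept regions. It was seen in 2 genotypes in 140 members, in 1 in 51 and in none in 2.

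The member with the smallest p lay near Nkx2-3, the gene of a homeobox factor that is used as a marker of stem cells in marrow. The region, chr19:43598869-43601813, is outside genes, 10512 bp from Nkx2-3, its nearest protein-coding gene, and 7264 bp from the end of a nearer gene that is not protein-coding. Its scaled value in mutant LT-HSC was 595 in the Dnmt3a library, 422 and 423 in the Npm1 libraries and 523 and 396 in the Dnmt3a;Npm1 libraries. In mutant MPP3 it was 209.8 and 113 in the Dnmt3a libraries, 149 and 144 in the Npm1 libraries and 234 in the Dnmt3a;Npm1 library. The lowest LT-HSC library was thus well above the highest MPP3 library. WT values were 494 and 588 in WT LT-HSC, against 169.6 and 193 in WT MPP3. The fitted mutant difference was 1.45 (SE 0.24), with an adjusted p of 0.243 in limma. Without Dnmt3a MPP3 replicate A the adjusted p was 0.0112, at a difference of 1.60, and over 24 alternatives it ranged from 0.0112 to 0.998, with 3 past the threshold. A second member, chr19:43570825-43571773, lies 40552 bp from Nkx2-3 and 1838 bp from a gene that is not protein-coding, and had a difference of 0.32 (SE 0.30), and its mutant values overlapped, at 106 to 202 in the 5 mutant LT-HSC libraries, against 105 to 154 in the 5 mutant MPP3 libraries.

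Zfpm1 encodes FOG1, the cofactor of GATA1 and GATA2 in erythroid and megakaryocyte development. The member inside the gene, chr8:122308957-122310156, had mutant LT-HSC values of 244 in the Dnmt3a library, 208 and 223 in the Npm1 libraries and 261 and 331 in the Dnmt3a;Npm1 libraries. In mutant MPP3 the values were 89.4 and 28.1 in the Dnmt3a libraries, 92.9 and 97.4 in the Npm1 libraries and 84.9 in the Dnmt3a;Npm1 library. Even the lowest mutant LT-HSC library was above every MPP3 library. WT values were 200 and 288 in WT LT-HSC, against 79.8 and 67.7 in WT MPP3. The mutant difference was 1.69 (SE 0.34), with an adjusted p of 0.243 in the fit of all 10 mutant libraries and 0.0156 without Dnmt3a MPP3 replicate A. Over 23 alternatives it ranged from 0.0131 to 0.998, with 2 past the threshold.

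The region shared by the Obsl1 and Inha promoter windows printed above, chr1:75505052-75507387, had the second smallest p of all members. OBSL1 is a cytoskeletal linker and INHA the alpha subunit of the hormone inhibin. Mutant LT-HSC had 326 in the Dnmt3a library, 358 and 315 in the Npm1 libraries and 355 and 435 in the Dnmt3a;Npm1 libraries. Mutant MPP3 had 179 and 213 in the Dnmt3a libraries, 140 and 142 in the Npm1 libraries and 133 in the Dnmt3a;Npm1 library. The groups stayed apart in each genotype, and the difference was 1.16 (SE 0.23), with an adjusted p of 0.243.

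The next separated regions lay in or near genes of signalling enzymes and their brakes. Inside Rgs6, which encodes a protein that switches G-protein signals off, the region chr12:83112063-83113755 had 179.8 to 312 in the 5 mutant LT-HSC libraries, against 13.0 to 128 in the 5 mutant MPP3 libraries. This gene held 2 members, both positive, at 1.47 and 1.73. At Prkg1, the gene of the cGMP-dependent protein kinase, the promoter region chr19:31663551-31665049 had 231 to 428 in the 5 mutant LT-HSC libraries, against 118 to 202 in the 5 mutant MPP3 libraries. Plpp7, a member of the phospholipid phosphatase family, lay 16846 bp from its region, chr2:32127661-32128883, which had 179.7 to 324 in the 5 mutant LT-HSC libraries, against 94.6 to 157 in the 5 mutant MPP3 libraries. The differences were 1.73 (SE 0.44), 0.99 (SE 0.25) and 1.25 (SE 0.28), with adjusted p-values of 0.302, 0.302 and 0.253.

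Further separated regions were inside genes of varied function. Tgm2 encodes transglutaminase 2, which cross-links proteins, and its region, chr2:158141096-158142593, had 162 to 283 in the 5 mutant LT-HSC libraries, against 51.8 to 89.4 in the 5 mutant MPP3 libraries. Wdfy3 encodes an adaptor for the autophagy of protein aggregates. Its region, chr5:102044648-102045524, had 82.8 to 235 in the 5 mutant LT-HSC libraries, against 25.4 to 69.5 in the 5 mutant MPP3 libraries, the largest fitted difference of any member at 1.87 (SE 0.44). The regions at Soga1 and at the non-coding gene Gm11762 had differences of 1.15 (SE 0.29) and 1.27 (SE 0.33). Adjusted p-values of these 4 were 0.253 to 0.307.

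**Figure D3:**
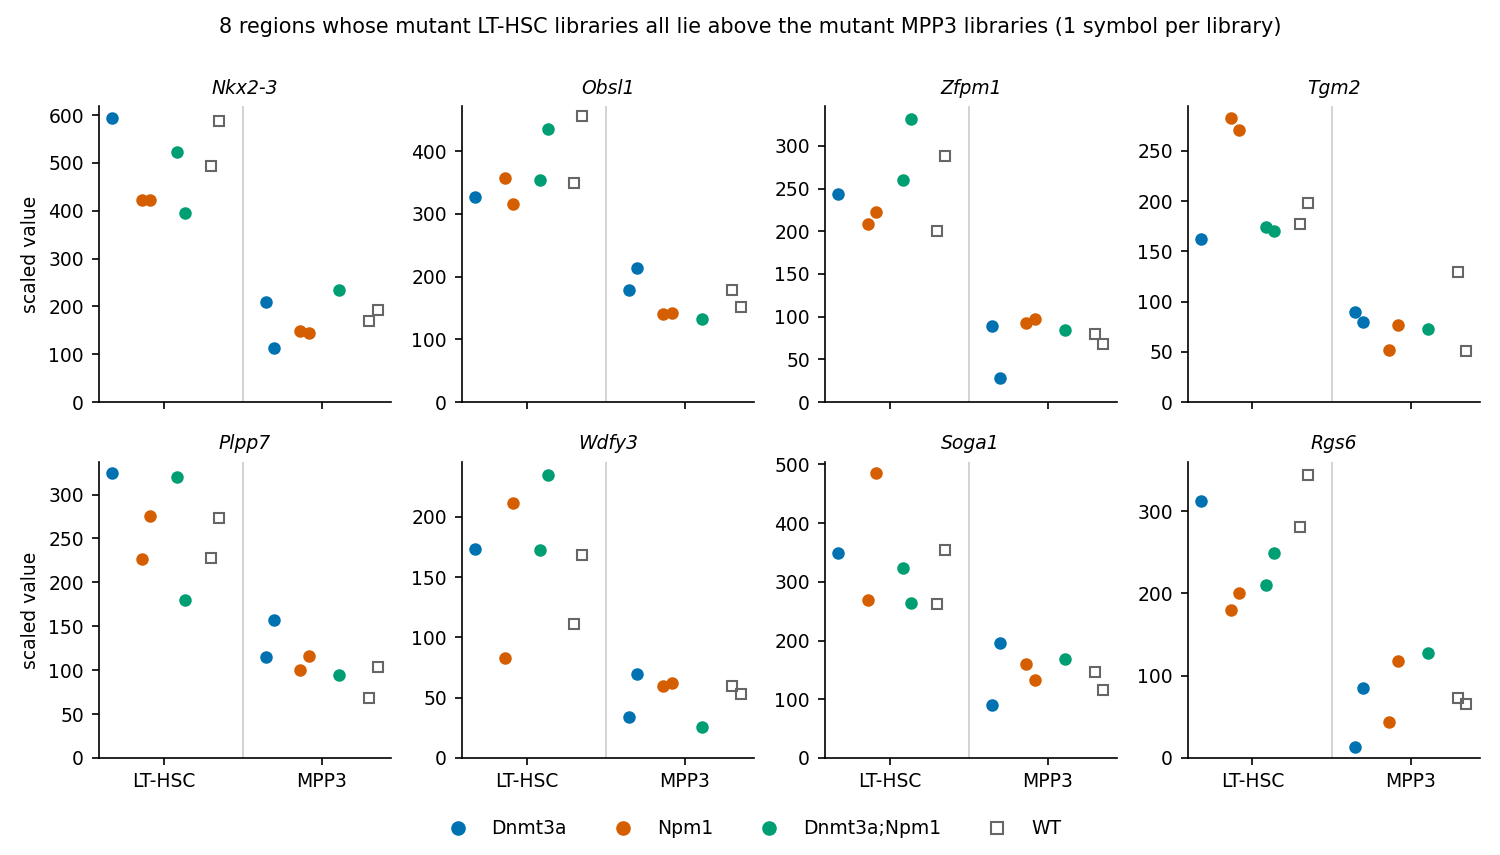
Scaled value of 8 member regions in each library, one panel per region, LT-HSC left of the grey line and MPP3 right of it; filled circles are mutant libraries coloured by genotype and open squares are WT libraries, which chose the regions. In each panel the 5 mutant LT-HSC libraries lie above the 5 mutant MPP3 libraries.

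The lists of stem cell and lineage genes split unevenly over the set. Of 56 kept regions at Hox, Meis and Pbx genes, 8 were members (14.3%), and of 64 at erythroid and megakaryocyte genes, 6 (9.38%). The stem cell identity list had 5 members of 148 (3.38%), among them regions at Lmo2, Nkx2-3 and Tie1. No member lay at the 63 myeloid, 66 lymphoid, 10 mast cell, 52 interferon or 66 cell cycle regions. Of the 63 myeloid regions 11 (17.5%) belonged to the 895 regions that were more open in wild-type MPP3 by the same rule. The remaining lists had 1 or 2 members each. The counts describe how the wild-type rule fell over the lists, and no test was run on them.

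HOX proteins give cells their position along the body axis and, in blood, sustain self-renewal. The members of this list included regions at Hoxa2, Hoxa3, Hoxa10, Hoxb6 and Hoxc5 and those near Nkx2-3. In the mutants 7 of the 8 were positive, with a median of 0.63, and 3 had an unadjusted p under 0.05, against 92.1%, 0.56 and 29.0% for all members. Over all 56 kept regions of the list the median was 0.19 in the mean of the mutants, where none was called. In Npm1 the list median was 0.43, and 12 were called higher and 1 lower. Called in Npm1 were also 2.87% and 8.26% of all kept regions. Of the low kept regions, with a median of 0.15, 4.58% were called higher and 0.514% lower. Hoxc5, at chr15:103013904-103016169, had 189 to 416 in the 5 mutant LT-HSC libraries, against 85.0 to 272 in the 5 mutant MPP3 libraries. Its difference averaged 0.68 (SE 0.27) and came to 1.53 (SE 0.41) in Npm1, where the adjusted p was 0.0284. Hoxa2 and Hoxa3, named after their values were seen, are anterior genes of the HoxA cluster and differed by 1.72 (SE 0.48) and 2.14 (SE 0.57) in Npm1, with adjusted p-values of 0.0336 and 0.0281. Hoxc5, Hoxa2 and Hoxa3 passed in Npm1 in 14, 14 and 15 of 23 alternatives. Their differences were -0.07, -0.03 and -0.51 in Dnmt3a and 0.60, 0.25 and 0.19 in Dnmt3a;Npm1. The share of signal in open regions differs between the Npm1 cell types, so its part cannot be told apart from cell type.

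Hoxa10 had the only member of the list below 0 in the mean of the mutants, by less than its SE. The promoter region, chr6:52239998-52240896, had mutant LT-HSC values of 153 in the Dnmt3a library, 78.8 and 189 in the Npm1 libraries and 105 and 35.2 in the Dnmt3a;Npm1 libraries. Mutant MPP3 had 247 and 81.7 in the Dnmt3a libraries, 105 and 109 in the Npm1 libraries and 133 in the Dnmt3a;Npm1 library. The mutant groups overlapped, with the lowest library in LT-HSC and the highest in MPP3. WT values were 255 and 267 in WT LT-HSC, against 103 and 101 in WT MPP3. The difference was -0.26 (SE 0.43), adjusted p 0.842, and it was 0.14 without Dnmt3a;Npm1 MPP3 replicate B, which leaves the mean of the other 2 genotypes. By genotype the Hoxa10 difference was 0.19 in Npm1, 0.10 in Dnmt3a and -1.06 in Dnmt3a;Npm1, which has 1 MPP3 library. Several genes central to stem cell function had kept regions but no member: the largest wild-type difference was 0.71 at Hlf, 0.66 at Procr, 0.51 at Mecom, 0.75 at Gata2, 0.44 at Meis1 and 0.32 at Hoxa9.

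All 6 erythroid and megakaryocyte members were positive in the mutants, with a median of 0.77, and 4 had an unadjusted p under 0.05. Over all members 92.1% were positive, the median was 0.56 and 29.0% had such a p. Aqp1 encodes a water channel of red cells. Its promoter region had 163 to 325 in the 5 mutant LT-HSC libraries, against 74.4 to 188 in the 5 mutant MPP3 libraries, and the difference was 0.86 (SE 0.29), with 0.99 (SE 0.39) for a second region 2073 bp from the gene end. Gp1ba and Gp9 encode parts of the platelet receptor for von Willebrand factor. The Gp1ba promoter region had 101 to 335 in the 5 mutant LT-HSC libraries, against 79.3 to 141 in the 5 mutant MPP3 libraries, with a difference of 0.68 (SE 0.32). The 2 Gp9 regions had differences of 0.51 (SE 0.33) and 0.56 (SE 0.41). The cell types overlapped at each of these regions, and no adjusted p was under 0.352.

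Single members stood for other lists. Tgfbr3 encodes betaglycan, a co-receptor for TGF-beta and inhibin. Its region, chr5:107236535-107237803, did not overlap between cell types, at 107 to 217 in the 5 mutant LT-HSC libraries, against 28.1 to 84.5 in the 5 mutant MPP3 libraries, with a difference of 1.46 (SE 0.43) and an adjusted p of 0.318. Btg2, an anti-proliferative early response gene, had a region 806 bp away with a difference of 1.11 (SE 0.34). Lmo2 encodes a bridging protein of the TAL1 and GATA complex, and the member for which it is the nearest protein-coding gene differed by 0.64 (SE 0.49). Cdh23, a cadherin gene, had 0.57 (SE 0.26), whereas Itga9, an integrin subunit, and Pecam1, an endothelial adhesion gene, had -0.15 (SE 0.42) and -0.11 (SE 0.40). The cell types overlapped at all of these but Tgfbr3.

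Of the 45 members with a wild-type difference of at least 1.5, only 9 were separated in the mutants, and of all 369 members 31 were. Some of the largest wild-type differences belonged to members that were not separated. The largest, 2.26, was at the non-coding gene Gm32384. Its mutant values were 107 to 179.8 in the 5 mutant LT-HSC libraries, against 32.2 to 115 in the 5 mutant MPP3 libraries, and the Dnmt3a MPP3 libraries, at 115 and 113, lay within the LT-HSC range. WT values were 189.9 and 172 in WT LT-HSC, against 26.6 and 44.6 in WT MPP3. Tenm4, a gene for a cell adhesion protein of the teneurin family, had a difference of 0.27 (SE 0.41) in the mutants and 2.19 in WT, and Exoc6b, an exocyst subunit, had 0.84 (SE 0.41) in the mutants and 2.124 in WT. The lowest mutant differences were -0.52 (SE 0.34) at Nemf, a ribosome quality control factor, and -0.52 (SE 0.42) at Spata6, a gene of sperm structure, followed by -0.28 (SE 0.43) at Samd11. None of these 3 passed the test, at adjusted p-values of 0.578, 0.658 and 0.827.

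The 3 genotypes were then compared. In Npm1, 36 members (9.76%) had a higher value in LT-HSC at an adjusted p under 0.05, against a percent called of 2.87 over kept regions and 4.58 over the low kept regions. None was lower, against 8.26% of kept regions and 0.514% of the low kept regions. At an unadjusted p under 0.05 the members higher in Npm1 LT-HSC were 113 (30.6%), against 8.64% of kept and 13.6% of low kept regions. The member median was 0.79, that of kept regions -0.25 and that of low kept regions 0.15. In Dnmt3a and in Dnmt3a;Npm1 no kept region was called. There 58 members (15.7%) and 26 members (7.05%) were higher at an unadjusted p under 0.05, against 5.09% and 1.19% of kept regions and 2.96% and 1.54% of low kept regions. Lower were 8 and 1, against 3.25% and 1.57% of kept regions and 5.06% and 1.95% of low kept regions. The member medians were 0.53 in Dnmt3a and 0.36 in Dnmt3a;Npm1, against 0.15 and -0.09 for kept regions.

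The member median lay above both other medians in each genotype. Above the median of all kept regions it lay by 1.04 in Npm1, 0.38 in Dnmt3a and 0.45 in Dnmt3a;Npm1. The low kept medians, 0.15, -0.055 and -0.071 in the same order, were closer together than those of all kept regions, so against them the 3 genotypes differed less. With the share of signal in open regions as a covariate the excess over kept regions was 0.74 in Npm1 and 0.55 in Dnmt3a. None of the 36 Npm1 calls was made, but the share differs between the Npm1 cell types, so this fit cannot separate it from cell type. The calls also rested on single libraries: their number rose or fell with the library left out, over all kept regions as well as members. Without an Npm1 LT-HSC library the member median was 0.88 or 0.74, against -0.21 or -0.23 for kept regions. Without an Npm1 MPP3 library it was 0.83 or 0.77, against -0.29 or -0.22. Scaling by library totals lowered the median Npm1 difference of all kept regions to -1.19 and that of members to -0.15, and 149 members were then positive, with 353 above the kept median.

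**Figure D4:**
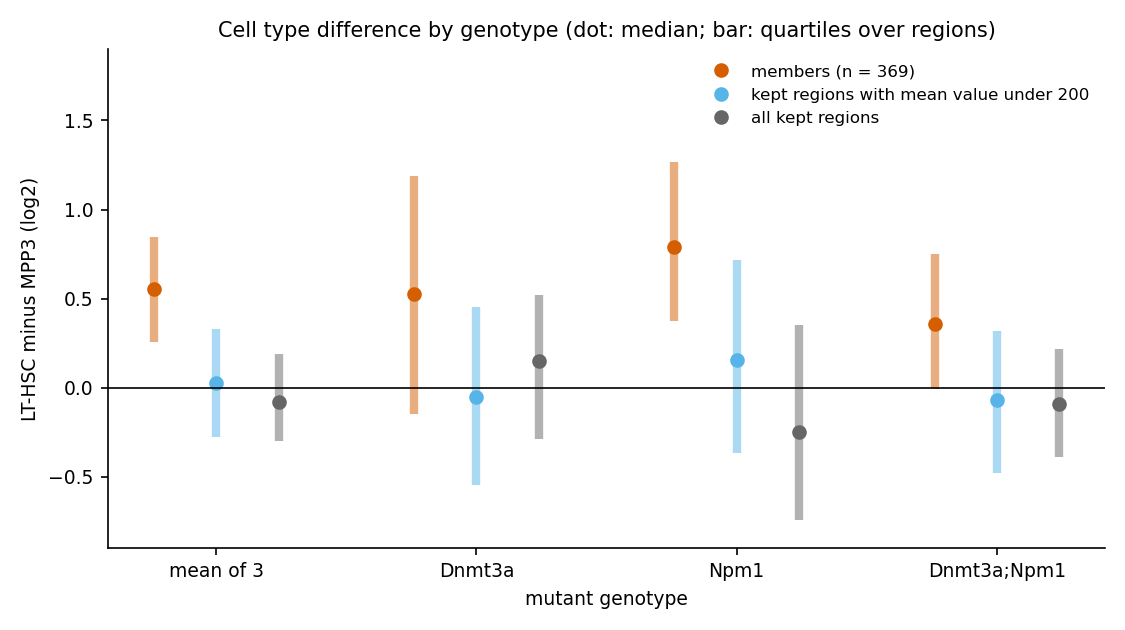
LT-HSC minus MPP3 difference (log2) by mutant genotype for the 369 members, the kept regions with a mean value under 200 and all kept regions; dots are medians and bars run between the quartiles over regions. The member medians are 0.56, 0.53, 0.79 and 0.36 from left to right, above both other sets in each genotype.

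The 36 members called in Npm1 were higher by 1.23 to 2.73 log2 units. The smallest adjusted p was at Kif19a, a kinesin motor gene, where the region chr11:114785111-114787232 had 319 and 313 in Npm1 LT-HSC, against 61.2 and 31.5 in Npm1 MPP3. The difference was 2.73 (SE 0.44), adjusted p 0.00561. At the Tgm2 region described above, the values were 283 and 270.4 in Npm1 LT-HSC, against 51.8 and 76.9 in Npm1 MPP3, a difference of 2.06 (SE 0.47) with an adjusted p of 0.0168. The Nkx2-3 region was higher by 1.499 (SE 0.36), adjusted p 0.0202, and the Obsl1 and Inha region by 1.23 (SE 0.35), adjusted p 0.035. Scnn1a, a subunit gene of the epithelial sodium channel, had 509 and 425 in Npm1 LT-HSC, against 138 and 81.3 in Npm1 MPP3. Ring1, the gene of a Polycomb ubiquitin ligase, had 222 and 285 in Npm1 LT-HSC, against 89.4 and 45.4 in Npm1 MPP3. Receptor and ligand genes among the 36, named after their values were seen, were Fzd9, a Wnt receptor, at 2.46 (SE 0.63), its co-receptor gene Lrp5 at 1.77 (SE 0.48), the ligand gene Wnt7b at 1.63 (SE 0.51), the receptor kinase gene Ret at 2.33 (SE 0.51) and the ephrin gene Efnb3 at 1.72 (SE 0.42). Of the 36 called members 10 (27.8%) were on chromosome 11, as were 138 (19.5%) of the 706 kept regions called higher. With each library centred within chromosomes, 35 members were called.

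Whether the cell type difference itself changed between genotypes was tested directly. Between Npm1 and Dnmt3a it was larger in Npm1 for 8 members (2.17%; percent called 1.51) and smaller for 2 (0.542%; percent called 3.2). At an unadjusted p under 0.05 the counts were 50 (13.6%) above 0, against 6.75% of kept regions, and 9 (2.44%) below, against 18.5%. The low kept regions were close to the members here, with 2.37% called higher and 0.0884% lower, 11.0% and 3.03% at the unadjusted threshold, and a median of 0.19 against 0.20 in members. No kept region was called between Dnmt3a;Npm1 and either single mutant, where 0 and 13 members had an unadjusted p under 0.05 above 0 and 23 and 4 below it, in the comparisons with Npm1 and with Dnmt3a. The shares for kept regions were 5.87% and 1.94% above and 2.81% and 2.53% below, and those for low kept regions 0.53% and 2.91% above and 4.54% and 1.19% below. Dnmt3a LT-HSC is a single library, assumed to vary like the other groups.

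Pparg, the gene of a nuclear receptor of lipid metabolism, and Clec16a, a gene of mitochondrial and lysosomal turnover, were the 2 with the larger difference in Dnmt3a. The Pparg region, chr6:115480015-115481258, had 111 and 177 in Npm1 LT-HSC, against 164 and 168 in Npm1 MPP3, and 261 in Dnmt3a LT-HSC, against 16.3 and 32.9 in Dnmt3a MPP3. The Dnmt3a MPP3 libraries were the lowest of all 14. The difference between genotypes was -3.51 (SE 0.78), adjusted p 0.0279. The Clec16a region, chr16:10689671-10690447, had 88.9 and 194 in Npm1 LT-HSC, against 126 and 115 in Npm1 MPP3, and 208 in Dnmt3a LT-HSC, against 13.0 and 7.32 in Dnmt3a MPP3. It changed by -3.81 (SE 0.96), adjusted p 0.0376.

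The 8 in the other direction were at Kif19a, Scnn1a, Pitpnm3, Tmem104, Lmx1b, Sox15, Fdxr and Ring1, 5 of them on chromosome 11. At Kif19a Dnmt3a cells had 138 in Dnmt3a LT-HSC, against 239 and 265 in Dnmt3a MPP3, the reverse order to Npm1. Scnn1a had 102 in Dnmt3a LT-HSC, against 209.8 and 468 in Dnmt3a MPP3, again with MPP3 higher. The differences between genotypes were 3.58 (SE 0.69) and 3.68 (SE 0.71), each at an adjusted p of 0.0193. In 2 of the 10 regions the 4 libraries with the lowest share of signal in open regions, Npm1 LT-HSC and Dnmt3a MPP3, all exceeded the other 6 mutant libraries. The same held for 16 members (4.34%) and 2.23% of kept regions. With the share as a covariate none of the 10 was called. That share follows the groups compared, so such a fit cannot separate it from genotype and cell type. The number called also rose or fell with the library left out. Without single libraries the difference between genotypes ranged from 3.14 to 4.02 at Kif19a and from 3.10 to 4.25 at Scnn1a.

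**Figure D5:**
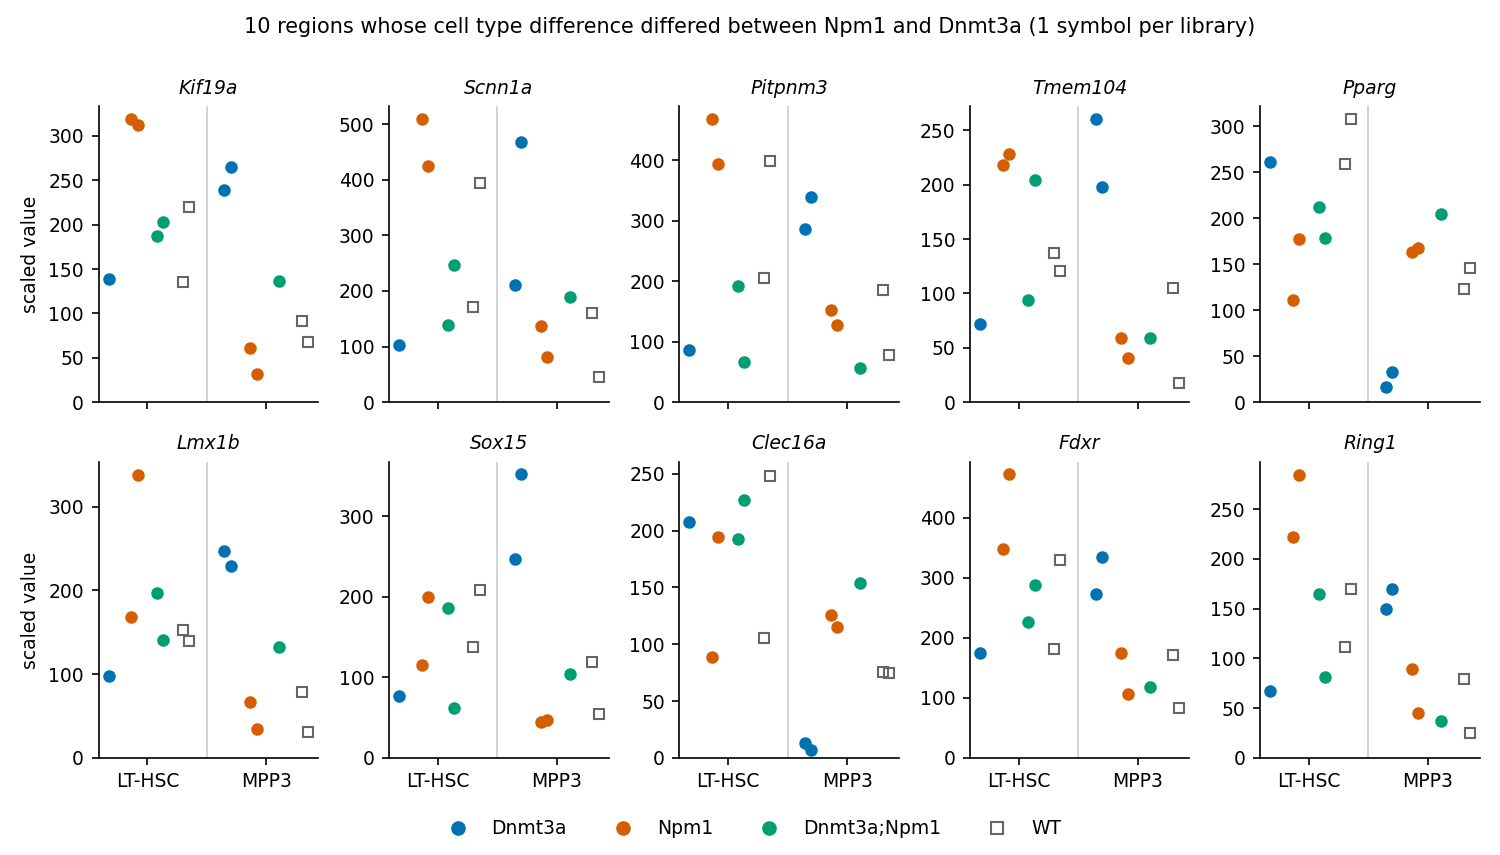
Scaled value of the 10 member regions whose LT-HSC minus MPP3 difference differed between Npm1 and Dnmt3a, one panel per region, LT-HSC left and MPP3 right of the grey line; filled circles are mutant libraries and open squares WT libraries. In Pparg and Clec16a the Dnmt3a MPP3 libraries are the lowest, and in the other 8 they lie above the single Dnmt3a LT-HSC library.

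Within one cell type, mutants were compared with each other only, since WT values had chosen the members. In MPP3 the members had lower values in Npm1 than in Dnmt3a, with a median difference of -0.33 log2 units against 0.18 over kept regions and 0.0024 over low kept regions. At an unadjusted p under 0.05, 43 members (11.7%) were lower, against 3.77% of kept and 5.81% of low kept regions, and 6 were higher (1.63%), against 8.65% and 4.06%. No member was called (percent called 0 above and 0.0122 below). The member median minus the kept median ranged from -0.62 to -0.40 without single libraries and from -0.56 to -0.27 under the other alternatives. The kept regions held 21.6% and 26.0% of the signal in the Dnmt3a MPP3 libraries, against 31.9% and 43.8% in Npm1 MPP3. This share cannot be told apart from genotype here. Within LT-HSC no member was called between Dnmt3a;Npm1 and Npm1, where 0.402% of kept regions were called higher and 0.179% lower, with 18 members (4.88%) above 0 and 29 (7.86%) below it at an unadjusted p under 0.05, against 13.4% and 6.91% of kept regions and 2.72% and 11.4% of low kept regions. None was called between Npm1 and Dnmt3a, or between Dnmt3a;Npm1 and Dnmt3a, where no kept region was called either. There 29 members (7.86%) lay above and 16 (4.34%) below 0 at an unadjusted p under 0.05 for Npm1 minus Dnmt3a, against 5.45% and 13.0% of kept regions and 9.08% and 1.38% of low kept regions. For Dnmt3a;Npm1 minus Dnmt3a the counts were 4 and 1, against 1.25% and 1.03% of kept and 1.86% and 0.828% of low kept regions.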

How the data were processed

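The deposited table gives a signal value per library, 14 in all, at 705361 mm10 regions. The deposited signal values are whole numbers whose scaling by the authors is not given in the sources used here. In 8 libraries low values lie on a step, as reads times a factor would, which gives 7300000 to 18300000 reads in regions, and in 6 none was found, so their depth is unknown and no count test was used. Per the submitters' processing notes, R 3.6.0, DiffBind 2.12.0, edgeR 3.26.4 and HOMER 4.10 were used, with no role given; aligner, peak caller and transposase shift are not given in the sources used here.

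Regions on 19 autosomes with a row mean of at least 100 were kept (24627). Libraries were scaled to a median of 200 and log2(value + 4) was fitted with limma 3.58.1 (R 4.3.3; robust, trended prior; two-sided; Benjamini-Hochberg adjustment over all kept regions) on the 10 mutant libraries in 6 groups. Fold changes are on that log2 scale, which understates changes of low regions, and errors are limma's moderated standard errors. A region is called at an adjusted p under 0.05. Tables and figures were made with Python 3.11.15, pandas 2.3.3 and matplotlib 3.10.9. Genes are RefSeq bounds of GRCm38.p6, the gene a region overlaps or else the nearest within 100000 bp, protein-coding genes first, so that a non-coding gene can lie nearer. The fit was tested on simulated data for the mean of the 3 genotypes over 24627 regions, 200 of them altered.

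Members, gene lists and the rule for named regions were chosen with earlier results of these data known. Named were the 12 separated members of smallest p, the 4 lowest, the 4 of largest wild-type difference, up to 3 per list, 2 per direction of a called genotype difference, and members at 9 genes chosen by name. Libraries were not paired by replicate letter in the main fit. Alternatives are under the closing section; 2 scalings within chromosomes and the count outside chromosome 11 were added after the data were seen. Motifs in whole regions were not analysed here, and a few of the named regions are not reported here.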

Additional observations from a re-analysis of the deposited data

Results flagged for a closer look

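In 10 members the cell type difference differed between Npm1 and Dnmt3a by limma's test of the difference itself. The difference of differences, in log2 units, was 3.58 at Kif19a, 3.69 at Tmem104, 3.68 at Scnn1a and 3.53 at Sox15. It was 3.46 at Lmx1b, 3.40 at Pitpnm3, 3.11 at Ring1 and 2.32 at Fdxr. At Pparg it was -3.51 and at Clec16a -3.81, with the larger cell type difference in Dnmt3a. Of the 10, 5 lie on chromosome 11, where the Dnmt3a MPP3 replicate B library stood 0.27 log2 units above the mean of all libraries and the Npm1 MPP3 libraries 0.13 and 0.09 below it. With each library centred within chromosomes 10 members were again called. Dnmt3a LT-HSC is 1 library. With the share of signal in open regions as a covariate, 15.1% to 26.0% in Npm1 LT-HSC and Dnmt3a MPP3, none of them was called. Since the share follows the groups compared, this fit cannot separate it from genotype and cell type.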

How the results depend on the processing

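Across 24 alternatives, 1109 of 1310 values of named regions kept their direction and their side of the threshold, 178 no longer passed, 9 passed only there and 14 changed sign. Members called in Npm1, 36 as fitted, numbered 58 with quantile normalization, 7 with cyclic loess or library totals, 8 and 18 at row means of 200 and 50, 0 with the share covariate or a prior neither trended nor robust, and 63 and 6 at wild-type differences of 0.8 and 1.5. Over the alternatives to the fit, 0 to 13121 kept regions were called in Npm1 in either direction. As fitted, 706 (2.87%) were called higher and 2035 (8.26%) lower. Members called in the mean of the genotypes numbered 5 with library totals and 1 with all 14 libraries, and in Dnmt3a 16 and 2. The excess of the member median in the mean was 0.75 and 0.53 at row means of 200 and 50. In Npm1 it was 0.70 with loess, 1.34 and 0.48 at those row means and 0.74 with the covariate. In Dnmt3a it was 0.54 with loess, 0.61 at 50 and 0.55 with the covariate, and in Dnmt3a;Npm1 0.60 at 200. For Npm1 minus Dnmt3a, the cell type difference was called in 3 members with loess, 116 with totals, 2 at 200, 0 with the covariate or the plain prior and 19 with all libraries. Between genotypes within a cell type, totals called 60 (Dnmt3a;Npm1 minus Npm1, LT-HSC), 10 (Npm1 minus Dnmt3a, MPP3) and 89 (Npm1 minus Dnmt3a, LT-HSC), quantile normalization 2 in each, all libraries 3 in the first and 3 in the second. A pseudocount of 16 and centring within chromosomes each called 1 in the first. The share of kept regions called under the alternatives is not reported here for comparisons between genotypes, so these counts do not set the members apart.

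Same-lettered libraries correlated at -0.12 to 0.067 after group means were removed, mostly between groups of different genotype. The only pair within a genotype, Npm1 LT-HSC with Npm1 MPP3, had -0.12. These values cannot tell whether both cell types of a letter came from the same recipients, and libraries were fitted as unpaired. With the letter as a replicate block 37 members were called in Npm1, 6 in the cell type difference of Npm1 minus Dnmt3a, 2 in Dnmt3a;Npm1 minus Npm1 in LT-HSC and 3 in Npm1 minus Dnmt3a in MPP3.

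Leaving out single libraries gave 0 to 9 calls in the mean (excess 0.57 to 0.75), 0 to 82 in Npm1 (0.97 to 1.11), 0 to 6 in Dnmt3a (0.23 to 0.38), 0 in Dnmt3a;Npm1 (0.38 to 0.52) and 0 to 30 for the Npm1 minus Dnmt3a cell type difference. It gave 0 to 7 and 0 to 4 for Dnmt3a;Npm1 minus Npm1 and Npm1 minus Dnmt3a in LT-HSC, 0 to 9 for Npm1 minus Dnmt3a in MPP3, and 0 elsewhere. In the mean, in Npm1 and in Dnmt3a the number of kept regions called moved with these omissions too, so the counts do not describe members alone. Without the only library of a group its genotype drops out, and a group of 1 library is assumed to vary like the others. The Npm1 member median was -0.15 with library totals. Mean differences that changed sign were Tenm4 -0.0545 and Itga9 0.0513 (covariate), Scnn1a -0.0181 (totals) and Pecam1 0.0439 (quantile). Without single libraries they ranged from -0.15 to 1.52 for Pparg, -0.40 to 0.13 for Samd11, -0.52 to 0.14 for Hoxa10, -0.0283 to 1.03 for Scnn1a, -0.61 to 0.15 for Itga9 and -0.40 to 0.58 for Pecam1. The causes were not tested. Motif shares over whole regions were not run.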

Other observations

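Some members lay close together in pairs: 2 at Gp9 spanned 2673 bp and 2 at Aqp1 spanned 3975 bp, and both pairs were positive in the mutants. A gene of 44 kept regions, Gse1, held 2 members, at 0.38 and 1.39 log2 units. The Ttc28 pair, spanning 5410 bp, had 1.06 and 1.22. In all, 53 members had another member within 50000 bp, and such neighbours are not independent of each other. At the 895 regions that were more open in wild-type MPP3, the mirror image held: the mutant median was -0.54, 313 (35.0%) were lower in LT-HSC at an unadjusted p under 0.05 and 68 (7.60%) had all 5 mutant MPP3 libraries above all 5 mutant LT-HSC libraries.

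Whole chromosomes stood apart in single libraries. In Dnmt3a MPP3 replicate B the chromosome median lay above the mean of all libraries by 0.48 log2 units on chromosome 18, 0.27 on chromosome 11 and 0.24 on chromosome 10. In Dnmt3a;Npm1 LT-HSC replicate B it lay 0.21 above on chromosome 1 and was -0.30 on chromosome 11, and in WT LT-HSC replicate B it was -0.21 on chromosome 18. No other library and chromosome reached 0.2 in either direction.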
